A study of Mus musculus with 41 samples.

Results

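Th2 cells in which Tet1, Tet2 and Tet3 had been deleted (TET iTKO) were compared with WT cells of the same mouse line after a second cycle of Th2 culture, by bisulfite amplicon sequencing (BS-seq) of the Il4 locus. The members were the 4 BS-seq samples whose titles give this line, genotype and cycle, 2 TET iTKO and 2 WT, of 41 samples in the series. They were read at the CpGs of 11 amplicons on the minus strand of mouse chromosome 11 (mm9), the strand from which Il4 is transcribed. Sodium bisulfite leaves 5mC and 5hmC as C, while unmodified cytosine, 5fC and 5caC are read as T. The level of a CpG was therefore the share of C, in percent, of all reads with C or T there, and it stands for 5mC + 5hmC together.

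TET proteins are dioxygenases that oxidise 5mC to 5hmC and further to 5fC and 5caC. These bases can be lost when DNA is copied without being remethylated, or be removed by the glycosylase TDG and base excision repair. IL-4 is the signature cytokine of Th2 cells, and the factor GATA3, which binds the letters GATA, is required for their differentiation. The Il4 gene is flanked by conserved noncoding sequences, CNS1 on its 5′ side and CNS2 on its 3′ side, and carries the hypersensitive site HSII in intron 2. In naïve CD4+ T cells much of the locus is methylated, and it loses methylation as Th2 cells form.

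WT cells came from C57BL/6 mice with floxed alleles of all TET genes (Tet1/2/3 fl/fl), and TET iTKO cells from mice that also carried a tamoxifen-dependent Cre. Mice were 8 to 16 weeks old, and both genotypes received tamoxifen for 5 days. A Rosa26-EYFP LSL reporter marked cells with Cre activity, and naïve CD4+ CD25- CD62L hi CD44 lo cells from spleen and lymph nodes were sorted for EYFP where the reporter was used. The presence of Cre differed with the genotype, and whether WT cells were sorted for EYFP is not given in the sources used here. Any part of Cre or of the sort thus cannot be told apart from that of the TET genes. The amplicons held no Tet sequence, so the deletion in these 4 libraries was not checked here. Both genotypes were cultured for 6 days in the first cycle, rested for 1 day and stimulated again through CD3 and CD28 for 1 day. IL-4 was present at 1000 U/ml and anti-IFN-γ at 1 µg/ml during stimulation, which was followed by 4 days in IL-2 at 20 U/ml. Further groups of C57BL/6 cells served for comparison: naïve WT CD4+ T cells (n = 3 libraries) and second-cycle WT cells of the TDG line (n = 2). TET WT and TET iTKO cells after the first cycle were also used (n = 2 each). These first-cycle cells are listed with 2 days of stimulation and 3 days in IL-2, although the study's methods give 4 days in IL-2.

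The median number of reads per CpG was 943 and 11646 in WT replicates 1 and 2 and 551.5 and 3502.5 in TET iTKO replicates 1 and 2. Depth thus differed between replicate numbers more than between genotypes. Bisulfite conversion was alike, with 99.8% of reads at non-CpG cytosines showing T in each of the 4 libraries. The amplicons held 64 CpGs, numbered from CpG1 in CNS1 to CpG64 in CNS2 in the direction of Il4 transcription. A CpG was tested when all libraries compared had at least 100 reads there, which left 60 CpGs; CpGs 23, 62, 63 and 64 fell short. Each test was a quasi-binomial regression on C and T reads, two-sided, with Benjamini-Hochberg adjustment, and a CpG was called at an adjusted p under 0.05. A level is given with its SD over libraries, and a difference with the SDs of both its groups combined. The labels name no animals, so p-values measure the spread between libraries, although the study describes separate experiments. The labels also do not say whether same-numbered libraries are paired. For the quasi-binomial test the spread came from a joint fit of 22 libraries in 10 groups, unless a fit of the compared groups alone is named. Confidence intervals (95%) follow Wilson. Since PCR reads carried no molecular identifiers and may copy the same molecule, these intervals and the limits given for counts of 0 take in counting error alone. Bulk levels do not show whether fewer cells carried a modified CpG or fewer alleles per cell did, and these cannot be told apart.

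TET iTKO cells carried more 5mC + 5hmC than WT cells from CNS1 through exon 2 and at the 5′ edge of CNS2. They differed little from WT cells in the 3′ region of HSII, in exon 3 and in the core of CNS2. Among 60 tested CpGs the quasi-binomial test called 42 (70.0%) higher in TET iTKO cells and 0 lower. At an unadjusted p under 0.05 the same counts were 42 and 0, and limma called 46 higher and 0 lower. The median difference was 26.2 points over the 60 CpGs and 39.5 points over the 42 called, which ranged from 2.92 to 75.4 points. The 18 CpGs that were not called had differences between −0.990 and 8.48 points. At 49 of 60 CpGs (81.7%) the lower TET iTKO library lay above the higher WT library, and at 3 (5.00%) the order was the opposite.

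**Figure D1:**
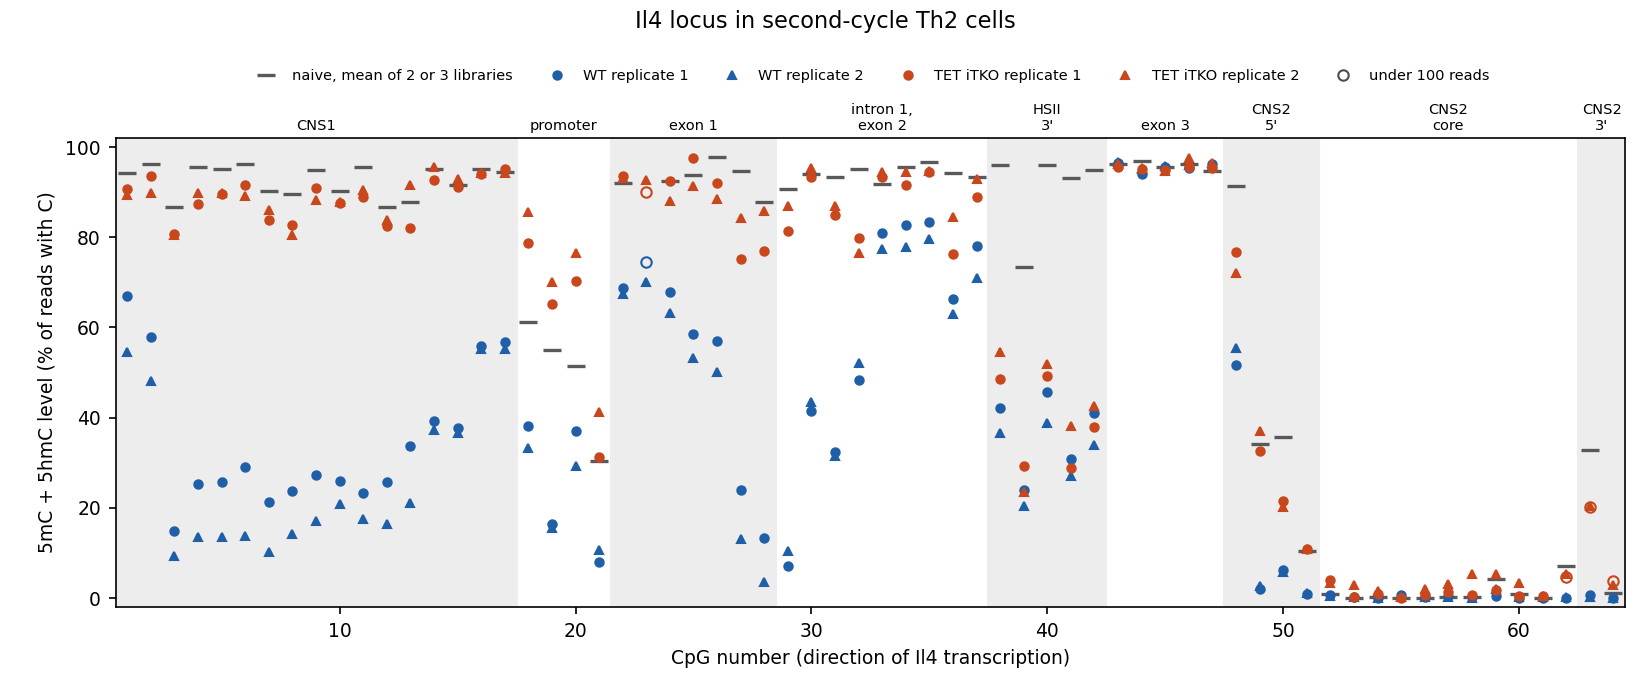
5mC + 5hmC level (%) of each CpG against CpG number, in the 2 WT (blue) and 2 TET iTKO (red) libraries of the second cycle, with open circles under 100 reads and bars for the naïve mean. The TET iTKO libraries lie above both WT libraries at all CpGs of CNS1, the promoter and exon 1 that were tested, and the genotypes meet in exon 3.

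The genotypes also differed in how the levels were spread. The mean level was 90% or more at 21 of 60 CpGs in TET iTKO cells and at 5 in WT cells, and those 5 were the CpGs of exon 3. It was under 10% at 10 CpGs in TET iTKO cells and at 16 in WT cells. WT cells thus had more CpGs at levels in between, 39 against 29. The replicates of a genotype had Pearson r of 0.987 (WT) and 0.994 (TET iTKO) over the 60 CpGs, which share libraries and are not independent points. Their levels differed by a median of 3.52 points in WT and 2.53 points in TET iTKO cells. The widest gaps were 15.5 points at CpG6 in WT cells and 9.98 points at CpG21 in TET iTKO cells. WT replicate 1 was above WT replicate 2 at 44 of 60 CpGs, and TET iTKO replicate 1 was above TET iTKO replicate 2 at 18. For same-numbered WT and TET iTKO libraries, deviations from the group means had a correlation of −0.271 over the 60 CpGs. Fits of the compared groups alone called 40 CpGs without a block and 39, all among the 42, with a block on replicate number. Their smallest adjusted p was 0.000182 and 0.00481, against 4.34e-09 in the joint quasi-binomial fit.

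CNS1, an enhancer between Il13 and Il4, lies upstream of the gene, at −8597 to −8105 bases from the Il4 start, and holds CpGs 1 to 17. Its mean level was 34.7% and 26.7% in WT replicates 1 and 2, and 88.5% and 89.1% in TET iTKO replicates 1 and 2. The difference of 58.04 ± 5.67 points was the widest among the region means (53.8 and 62.3 points by replicate number). An exact permutation test of 2 libraries against 2 cannot go below p = 0.333, two-sided, and it gave that value here and for the promoter, exon 1, intron 1 and exon 2, HSII and CNS2 means. All 17 CpGs were called higher, with differences of 29.2 to 70.1 points (median 62.6). WT replicate 1 lay above WT replicate 2 at all 17, while TET iTKO replicate 1 lay above replicate 2 at 7.

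Within CNS1 the CpGs differed among themselves far more in WT than in TET iTKO cells. The SD over the 17 CpGs was 16.1 points in WT cells, whose mean levels ran from 12.1% at CpG3 to 60.8% at CpG1. It was 4.24 points in TET iTKO cells, whose CpGs lay between 80.5% and 94.7%. CpG5 (position 53440624) was at 25.6% and 13.6% in the WT replicates and at 89.5% and 89.9% in the TET iTKO replicates, on 545 to 14066 reads. It had the widest difference of CNS1, 70.1 ± 8.54 points (adjusted p = 8.35e-09). CpG1 (position 53440768), at the 5′ end, was at 67.0% and 54.6% in WT and at 90.6% and 89.4% in TET iTKO cells. Its difference was the narrowest of CNS1, 29.2 ± 8.86 points (adjusted p = 6.20e-06). The genotypes did not overlap at either CpG, and the spread of differences followed the WT levels, since the TET iTKO levels of both were alike.

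The same pattern held by amplicon. CpGs 14 to 17, at the 3′ end of CNS1, had means of 47.4% and 46.1% in WT and 93.2% and 94.2% in TET iTKO cells. CpGs 9 to 13 had 27.2% and 18.6% in WT and 86.4% and 88.4% in TET iTKO cells. The centre of CNS1 was thus lower in WT cells than its 3′ end. CpGs 3 to 8 include the 5 CpGs with the lowest WT levels of CNS1, so their sequence is shown (mm9, minus strand, chr11:53440569-53440673), with each CpG in capitals.
CNS1, CpGs 3 to 8: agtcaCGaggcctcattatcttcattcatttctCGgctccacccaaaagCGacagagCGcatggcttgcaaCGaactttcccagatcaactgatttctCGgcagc

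The promoter amplicon holds CpGs 18 to 21, upstream of the Il4 start. Its mean level was 24.9% and 22.2% in the WT replicates and 61.4% and 68.4% in the TET iTKO replicates, a difference of 41.4 ± 5.35 points. All 4 CpGs were called higher, and the genotypes did not overlap at any of them. CpG19 (position 53432501) had the widest difference, with 16.3% and 15.5% in WT and 65.1% and 70.1% in TET iTKO cells (51.7 ± 3.61 points, adjusted p = 2.52e-08). CpG18 (position 53432516) was at 38.2% and 33.3% in WT and 78.7% and 85.7% in TET iTKO cells (46.5 ± 6.02 points, adjusted p = 8.79e-08). CpG20 (position 53432447) was at 36.996% and 29.3% in WT and 70.3% and 76.6% in TET iTKO cells (40.3 ± 7.003 points, adjusted p = 6.71e-07). TET iTKO replicate 2 was the higher of its pair at each of these CpGs. CpG21 (position 53432422), the promoter CpG nearest to the start, was lowest of the promoter in each library. It was at 7.96% and 10.6% in WT and 31.4% and 41.3% in TET iTKO cells (27.1 ± 7.30 points, adjusted p = 1.12e-05). The stretch that carries the 4 CpGs is shown because it carries CpGs of unequal levels within 106 bases (mm9, minus strand, chr11:53432416-53432521), with the CpGs in capitals.
promoter, CpGs 18 to 21: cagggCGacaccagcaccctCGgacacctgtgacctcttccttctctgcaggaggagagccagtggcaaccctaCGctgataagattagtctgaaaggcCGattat

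CpGs 22 to 28 lie in exon 1, the first of them before the coding sequence and most within it. Over the 6 tested, the mean was 48.3% and 41.8% in WT and 88.0% and 88.5% in TET iTKO cells, a difference of 43.2 ± 4.59 points. All 6 were called higher, by 24.8 to 72.9 points, on as few as 146 reads (TET iTKO replicate 2 at CpG22). CpG24 (position 53432064) had the narrowest difference of these 6, with 67.9% and 63.2% in WT and 92.6% and 88.1% in TET iTKO cells (24.8 ± 4.63 points, adjusted p = 0.000575). CpG23 (position 53432124) was not tested, since it had 43 reads in WT replicate 1 and 20 in TET iTKO replicate 1. Its levels were 74.4% and 70.03% in WT cells. In TET iTKO cells they were 18 C reads of 20 and 92.6%. At this depth the intervals of the replicates numbered 1 overlapped (59.8% to 85.1% in WT and 69.9% to 97.2% in TET iTKO cells), while those of the replicates numbered 2 did not (66.2% to 73.6% in WT and 87.95% to 95.5% in TET iTKO cells).

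The widest differences among the tested CpGs, at CpGs 29 and 28, lay at the junction of exon 1 and intron 1. CpG29 (position 53431923), in intron 1, was at 7.07% and 10.5% in the WT replicates and at 81.4% and 86.99% in the TET iTKO replicates, on 1376 to 34872 reads. Its difference of 75.4 ± 4.64 points (adjusted p = 4.34e-09) was the widest of the 60 CpGs. CpG28 (position 53431995) was at 13.2% and 3.62% in WT and 76.9% and 85.8% in TET iTKO cells, a difference of 72.9 ± 9.25 points (adjusted p = 1.67e-07). CpG27 (position 53432007) was at 23.95% and 13.2% in WT and 75.1% and 84.2% in TET iTKO cells, a difference of 61.1 ± 9.99 points (adjusted p = 3.52e-08). WT cells thus had little modified cytosine at CpGs 28 and 29, and TET iTKO cells had at least 75.1% in either library at all 3 CpGs. The stretch from CpG25 to CpG29 is shown because levels in WT cells were unequal along it, with means of 55.9% and 53.6% at CpGs 25 and 26 and 8.42% and 8.78% at CpGs 28 and 29 (mm9, minus strand, chr11:53431917-53432045). The CpGs are in capitals.
exon 1 to intron 1, CpGs 25 to 29: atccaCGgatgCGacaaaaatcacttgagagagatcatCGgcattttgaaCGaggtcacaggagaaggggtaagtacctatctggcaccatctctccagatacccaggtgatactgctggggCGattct

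Over the 9 CpGs of intron 1 and exon 2 (CpGs 29 to 37), the mean was 57.9% and 56.2% in WT and 87.1% and 89.7% in TET iTKO cells, a difference of 31.3 ± 2.12 points. All 9 were called higher. The differences fell into unequal sizes along this amplicon: 75.4 points at CpG29, 51.9 and 54.0 points at CpGs 30 and 31, 28.1 points at CpG32 and 12.6 to 16.4 points at CpGs 33 to 37. CpG34 (position 53431718), in exon 2, had the narrowest, with 82.8% and 77.9% in WT and 91.5% and 94.4% in TET iTKO cells (12.6 ± 4.00 points, adjusted p = 0.00211). CpG36, picked after the values were seen, was not called with the replicate block or without TET iTKO replicate 2. The 5 CpGs at the 3′ end were thus mostly modified in both genotypes, while in WT cells CpG29 was low and CpGs 30 to 32 lay in between.

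HSII is a DNase I hypersensitive site of Th2 cells in intron 2 of Il4, and the genotypes lay close together in its 3′ region. Over its CpGs 38 to 42, the mean level was 36.7% and 31.4% in the WT replicates and 38.8% and 42.2% in the TET iTKO replicates. The difference was 6.41 ± 4.44 points. Between the replicates numbered 1 it was 2.08 points and between those numbered 2 10.7 points. These 2 values depend on a matching of libraries that no label gives. The difference was 3.76 points without WT replicate 2 and 10.3 points with the WT cells of the TDG line added as controls. The TET iTKO libraries were above both WT libraries in the mean, and by little beside the spread within each genotype.

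CpG38 (position 53430322) was the only one of these 5 CpGs called. It was at 42.2% and 36.7% in WT and at 48.5% and 54.5% in TET iTKO cells, a difference of 12.1 ± 5.73 points (adjusted p = 0.0389). This call did not hold with limma (adjusted p = 0.136), without WT replicate 2 (adjusted p = 0.205) or without TET iTKO replicate 2 (adjusted p = 0.226). With the 4 WT libraries as controls CpG38 was called (adjusted p = 0.00511), and so was CpG40 (adjusted p = 0.0458). CpG40 (position 53430272) was at 45.6% and 38.7% in WT and 49.3% and 51.96% in TET iTKO cells (8.48 ± 5.20 points, adjusted p = 0.139). CpG39 (position 53430283) was at 23.997% and 20.5% in WT and 29.3% and 23.5% in TET iTKO cells (4.15 ± 4.75 points, adjusted p = 0.402). The genotypes overlapped at CpG39 and were separate at CpG40. CpG41 (position 53430188) was at 30.8% and 27.04% in WT and 28.9% and 38.3% in TET iTKO cells (4.65 ± 7.15 points, adjusted p = 0.512). CpG42 (position 53430175) was at 41.04% and 34.04% in WT and 37.98% and 42.5% in TET iTKO cells (2.71 ± 5.90 points, adjusted p = 0.677). At CpGs 41 and 42 the TET iTKO replicates lay on either side of WT replicate 1. Without TET iTKO replicate 2 the difference at CpG41 was −0.0413 points, and without WT replicate 2 that at CpG42 was −0.792 points. The 159 bases are shown because they carry the CpGs at which TET iTKO cells came closest to intermediate WT levels (mm9, minus strand, chr11:53430169-53430327), with the CpGs in capitals.
HSII 3′ region, CpGs 38 to 42: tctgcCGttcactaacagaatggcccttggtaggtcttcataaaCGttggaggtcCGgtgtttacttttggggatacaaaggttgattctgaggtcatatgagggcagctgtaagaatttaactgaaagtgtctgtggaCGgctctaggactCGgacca

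The difference between genotypes was compared between CNS1 and the 3′ region of HSII within each library. The CNS1 mean minus the HSII mean was −1.98 and −4.67 points in the WT replicates and 49.7 and 46.9 points in the TET iTKO replicates. The regions thus had similar levels in WT cells and lay far apart in TET iTKO cells. The difference was 51.6 ± 2.75 points, and 50.2 to 53.0 points with libraries left out in turn. By replicate number it was 51.7 and 51.6 points, which depends on a matching of libraries that no label gives. The exact permutation test gave p = 0.333, the smallest that 2 against 2 allows.

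**Figure D2:**
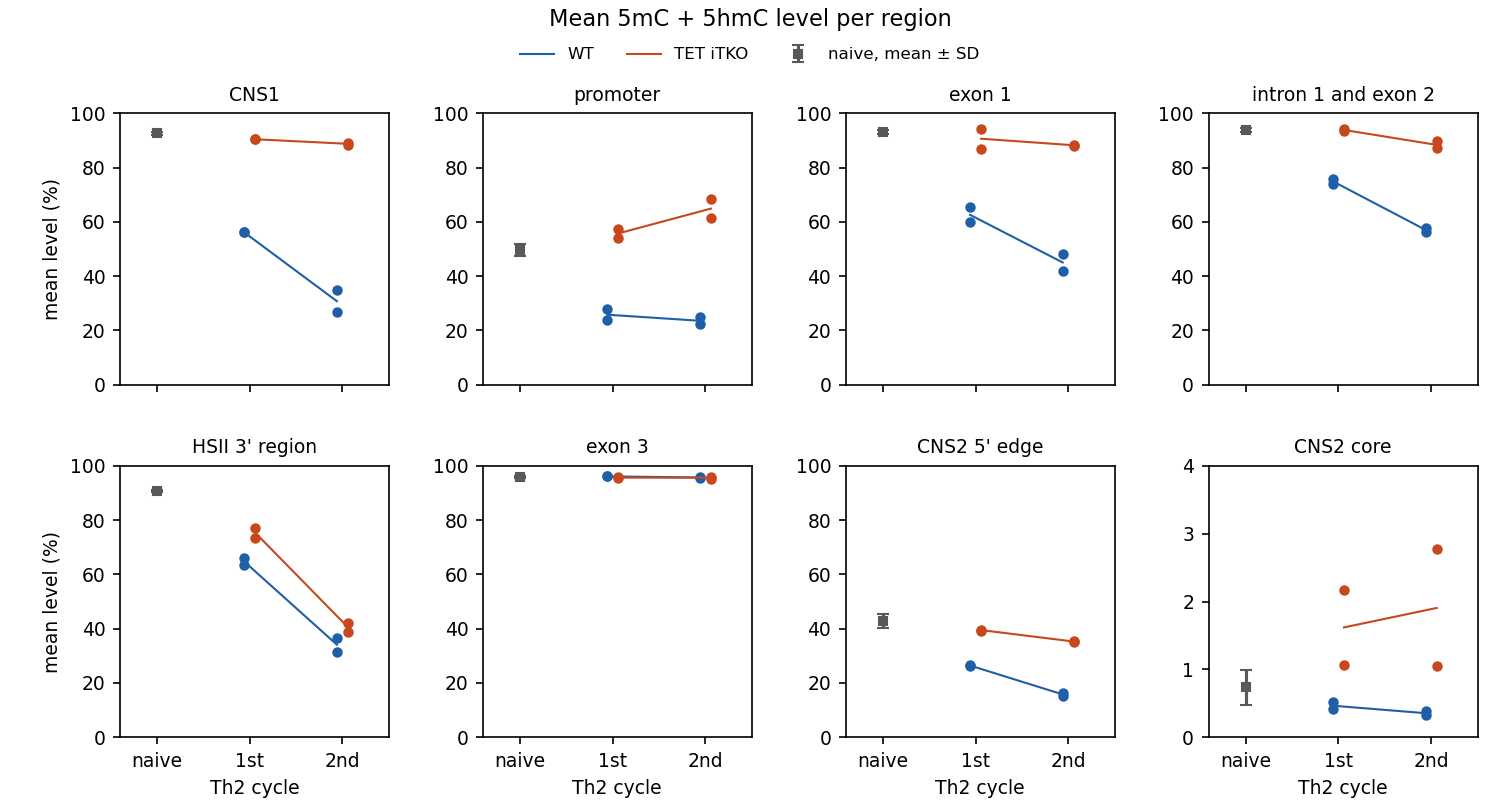
Mean 5mC + 5hmC level (%) of each region in each WT (blue) and TET iTKO (red) library of the first and second cycle, with lines between group means, naïve cells as mean ± SD and a scale of its own for the CNS2 core. Second-cycle TET iTKO and naïve cells lie close together in CNS1 (88.5% to 89.1% and 92.7%) and far apart in the 3′ region of HSII (38.8% to 42.2% and 90.7%).

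Exon 3, in the coding sequence, was highly methylated in either genotype. Its 5 CpGs (43 to 47, the last of them just inside intron 3) had means of 95.6% and 95.9% in WT and 95.3% and 96.1% in TET iTKO cells. The difference was −0.0637 ± 0.647 points (exact permutation test, two-sided, p = 1), and its sign turned when WT replicate 2 or TET iTKO replicate 1 was left out (0.108 and 0.360 points). By the quasi-binomial test 0 of the 5 CpGs were called, 0 had an unadjusted p under 0.05, and limma called 0. The differences ran from −0.990 ± 0.226 points at CpG45 (position 53427423, adjusted p = 0.684) to 0.870 ± 1.52 points at CpG46 (position 53427407, adjusted p = 0.684). CpG45 was at 95.6% and 95.9% in WT and at 94.8% and 94.7% in TET iTKO cells. CpG46 was at 95.4% and 95.95% in WT and at 95.5% and 97.6% in TET iTKO cells, and its difference was −0.175 points without TET iTKO replicate 2. The deposited counts have an upper limit per cytosine, and it was reached in WT replicate 2 and TET iTKO replicate 2 here and at CpGs 14 to 17, so reads past it are not in these levels. Whether C reads and all reads stop together at the limit could not be told from the counts. If C reads ran on, these levels would be too high. The replicates numbered 1 did not reach the limit, and their exon 3 means lay close to those of the replicates numbered 2. At CpGs 14 to 17 the means of replicates 1 and 2 were 47.4% and 46.1% in WT and 93.2% and 94.2% in TET iTKO cells.

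CNS2, a 3′ enhancer that contains the hypersensitive site HSV, lies 12535 to 13223 bases downstream of the Il4 start and holds CpGs 48 to 64. At its 5′ edge (CpGs 48 to 51) the mean was 15.2% and 16.3% in WT and 35.4% and 35.03% in TET iTKO cells. The difference of 19.5 ± 0.807 points was 20.2 and 18.8 points by replicate number, and all 4 CpGs were called higher. CpG48 (position 53419636) was at 51.7% and 55.5% in WT and 76.7% and 72.1% in TET iTKO cells (20.8 ± 4.25 points, adjusted p = 0.000876). CpG49 (position 53419562) was at 1.93% and 2.73% in WT and 32.5% and 37.1% in TET iTKO cells (32.5 ± 3.25 points, adjusted p = 4.75e-07). CpG49 was thus nearly free of modified cytosine in WT cells. CpG50 (position 53419508) was at 6.24% and 5.76% in WT and 21.6% and 20.2% in TET iTKO cells (14.9 ± 1.08 points, adjusted p = 0.000711). CpG51 (position 53419486) was at 0.992% and 1.12% in WT and 10.9% and 10.8% in TET iTKO cells (9.81 ± 0.111 points, adjusted p = 0.000733). Levels thus declined toward the core of CNS2 in both genotypes, apart from the higher level of CpG50 than CpG49 in WT cells, and the TET iTKO libraries were above the WT libraries at each step. The stretch is shown for this gradient (mm9, minus strand, chr11:53419480-53419641), with the CpGs in capitals.
CNS2 5′ edge, CpGs 48 to 51: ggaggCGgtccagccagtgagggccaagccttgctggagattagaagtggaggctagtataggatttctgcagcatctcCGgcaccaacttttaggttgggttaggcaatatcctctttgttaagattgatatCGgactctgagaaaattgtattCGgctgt

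The core of CNS2 (CpGs 52 to 62, of which 52 to 61 were tested) was nearly unmethylated in both genotypes. The mean was 0.327% and 0.379% in WT and 1.04% and 2.77% in TET iTKO cells, a difference of 1.55 ± 1.22 points. It was 0.690 points without TET iTKO replicate 2 and 2.67 points without TET iTKO replicate 1. For comparison, 0.205% to 0.237% of reads at non-CpG cytosines showed C in these libraries. The TET iTKO means were thus above this background, and the WT means close to it. CpG52 (position 53419370) was at 0.642% and 0.593% in WT and 3.95% and 3.29% in TET iTKO cells. It had the widest difference among the tested CpGs of the core, 3.00 ± 0.465 points, and its call depended on the test (adjusted p = 0.0754 by the quasi-binomial test, 0.0197 by limma and 0.0175 with the 4 WT libraries as controls). CpG55 (position 53419318) was at 0.796% and 0.322% in WT and at 0 of 483 reads, which allows up to 0.621%, and 0.194% in TET iTKO cells. It had the lowest difference of the core, −0.462 ± 0.362 points (adjusted p = 0.512).

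CpG58 (position 53419209) was the only CpG of the core called by the quasi-binomial test, 2.92 ± 3.32 points higher in TET iTKO cells (adjusted p = 0.0340). It had 1 C read of 576 and 0 of 1573 in WT, and 3 of 453 and 23 of 430 in TET iTKO cells, so the levels were 0.174%, 0%, 0.662% and 5.35%. A count of 0 in 1573 reads allows a level of up to 0.191%. The call rested on TET iTKO replicate 2, without which the difference was 0.575 points (adjusted p = 0.537). It was also lost without WT replicate 1 (adjusted p = 0.0673) or WT replicate 2 (adjusted p = 0.134). Limma called 6 of the 10 tested CpGs of the core (52, 54, 56, 57, 58 and 60), and the test with the 4 WT libraries as controls called 4 (52, 57, 58 and 60), all higher.

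CpGs 62 to 64, at the 3′ end of CNS2, were not tested because TET iTKO replicate 1 had 54 to 69 reads there. CpG63 (position 53419056) was at 0.709% and 0.220% in WT and at 20.3% and 20.5% in TET iTKO cells. The intervals were 0.125% to 3.91% and 0.0602% to 0.797% in WT, and 12.5% to 31.2% and 17.03% to 24.4% in TET iTKO cells, and did not overlap between genotypes. CpG62 (position 53419073) was at 0 of 137 reads, which allows up to 2.19%, and 0.220% in WT and at 4.76% and 5.35% in TET iTKO cells. CpG64 (position 53418948) had 0 C reads of 116 and 768 in WT, which allows up to 2.59% and 0.391%, and was at 3.70% and 2.92% in TET iTKO cells. At CpGs 62 and 64 the intervals of the replicates numbered 1 overlapped (up to 2.73% and 3.21% in WT, from 1.63% and 1.02% in TET iTKO cells). CpG63 thus stood apart between genotypes at the 3′ end of CNS2, on few reads.

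**Figure D3:**
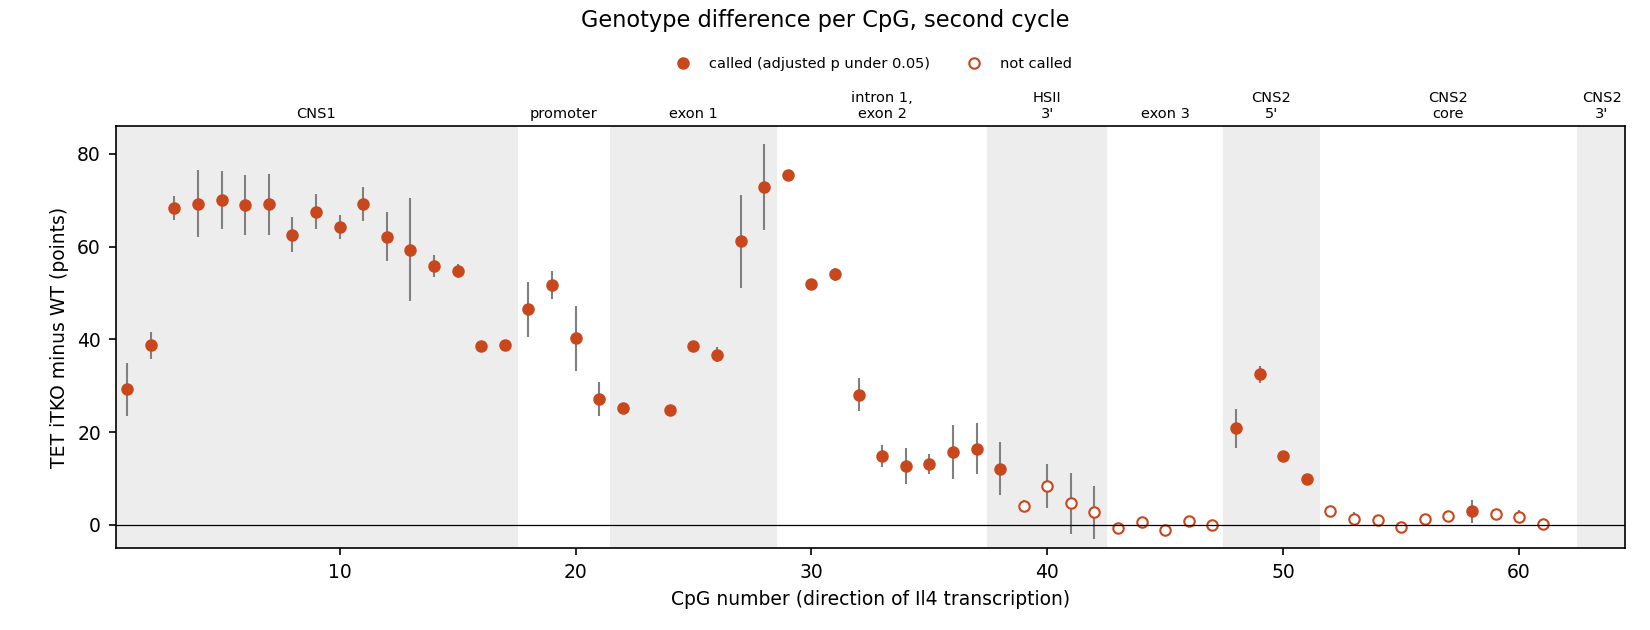
Difference in 5mC + 5hmC level (percentage points, TET iTKO minus WT) at each tested CpG, with lines from 1 replicate number's difference to the other's and filled circles for CpGs called. Differences run from −0.990 points at CpG45 to 75.4 points at CpG29, and they change over short distances in exon 1, intron 1 and CNS2.

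The letters GATA, on either strand (GATA or TATC), were searched within 25 bases on either side of each CpG. They occurred near 19 of the 64 CpGs (29.7%) and in 20.7% of all windows of this length between the outer amplicons. The 12 called among the 19 tested CpGs with the letters included CpG29, CpGs 18, 20 and 21 of the promoter and CpGs 3 and 4 of CNS1. The median difference was 24.8 points over those 19 CpGs and 29.2 points over the 41 without the letters, 30 of which were called. The letters were near 28.6% of the called CpGs and 38.9% of the others, many of which lie in the core of CNS2. The difference between the medians was not tested. A match describes only the sequence.

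Naïve CD4+ T cells, the population from which Th2 cells are derived, were set beside TET iTKO cells of the second cycle to show where the levels of TET iTKO cells lay relative to the start of culture. Of 54 CpGs with enough reads, 13 (24.1%) were called, 3 higher (5.56%) and 10 lower (18.5%) in TET iTKO cells. In CNS1 the quasi-binomial test called 0 of 17, limma called 3 (CpGs 4, 6 and 11), and 5 had an unadjusted p under 0.05. A fit of the compared groups alone called 10 of these 17 (CpGs 1 to 9 and 11), all lower in TET iTKO cells. There TET iTKO cells were 3.90 points below naïve cells in the mean, and WT cells 61.9 points below. In the 3′ region of HSII all 5 CpGs were called lower in TET iTKO than in naïve cells, with differences of −59.5 to −44.4 points. The mean of naïve cells there, 90.7% ± 0.316 (SD, n = 3), was 50.2 points above that of TET iTKO cells and 56.6 points above that of WT cells. TET iTKO cells thus had far less modified cytosine than naïve cells in HSII, while in CNS1 the distance was small and its calls depended on the fit. The count of calls moved with the processing: it was 3 of 18 at a minimum of 500 reads and 28 when the fit held only the compared groups. With the replicate number added to that fit as a block it was 0, where 10 CpGs had an unadjusted p under 0.05 and the smallest adjusted p was 0.133. The comparisons of TET iTKO cells with WT and with naïve cells share the TET iTKO libraries, so their values are given side by side only.

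In the promoter naïve cells lay between the genotypes, with a mean of 49.6% ± 2.20 (SD, n = 3). The naïve mean minus that of TET iTKO cells was −15.3 points, and minus that of WT cells 26.04 points. CpG18 was at 61.2% ± 1.08 in naïve cells (SD, n = 3), 20.9 points under its level in TET iTKO cells (adjusted p = 0.00049). CpG20 was at 51.5% ± 4.22 in naïve cells (SD, n = 3), 21.9 points under TET iTKO cells (adjusted p = 0.00049). CpG19, at 55.1% ± 6.41 in naïve cells (SD, n = 3), was 12.6 points under TET iTKO cells (adjusted p = 0.0268). It was not called by limma, nor without naïve replicate 1, naïve replicate 3 or TET iTKO replicate 2. These 3 CpGs of the promoter were the 3 called higher in TET iTKO than in naïve cells. CpG21 was 5.90 points higher in TET iTKO cells and was not called (adjusted p = 0.411).

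The other calls against naïve cells were in intron 1, exon 2 and CNS2. In intron 1 and exon 2, CpGs 31, 32 and 36 were called lower in TET iTKO cells, with differences of −7.42, −16.9 and −13.9 points. The call at CpG31 was lost in each of the 5 fits with a library left out, while CpGs 32 and 36 stayed called. CpGs 31, 32 and 36 were among the CpGs at which TET iTKO cells were lowest in that amplicon. The other 6 of the 9 were not called, although the fit of the compared groups alone added CpG29 (−6.53 points). At the 5′ edge of CNS2, CpG48 (−16.9995 points, adjusted p = 0.000577) and CpG50 (−14.8 points, adjusted p = 0.00838) were called lower, the latter not without TET iTKO replicate 2. CpGs 49 and 51 were not called, at 34.1% ± 4.39 and 10.5% ± 2.39 in naïve cells (SD, n = 3), so that TET iTKO and naïve levels lay close together there. With all libraries, none of the 5 CpGs of exon 3 or the 10 tested in the CNS2 core was called. At an unadjusted p under 0.05 there were 0 and 1 (CpG58), and limma called 0. CpG58 was at 0.662% and 5.35% in TET iTKO replicates 1 and 2, beside a naïve mean of 0.235%. The fit of the compared groups alone called 4 of the core (CpGs 52, 53, 57 and 58), all higher in TET iTKO cells. No CpG of exon 1 was tested with all naïve libraries, because naïve replicate 2 had too few reads. Without it 6 were tested and CpGs 26 and 27 were called, at −7.52 and −14.995 points from naïve cells. The mean of exon 1 in these naïve libraries was 93.1% ± 0.775 (SD, n = 2).

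After the first cycle the difference between the genotypes of this line was narrower in most regions. In CNS1 it was 34.3 points, against 58.04 points after the second cycle, and in the promoter 30.0 against 41.4 points. In exon 1 it was 28.1 against 43.2 points, and in intron 1 and exon 2 it was 18.9 against 31.3 points. The 3′ region of HSII had the opposite order, with 10.6 against 6.41 points. The HSII mean was 64.8% ± 1.599 after the first and 34.1% ± 3.76 after the second cycle in WT cells, and 75.3% ± 2.63 and 40.5% ± 2.37 in TET iTKO cells (SD, n = 2). Both genotypes were thus far lower there after the second cycle. In CNS1, by contrast, TET iTKO cells were at 90.5% ± 0.0513 and 88.8% ± 0.384 (SD, n = 2), close together in the 2 cycles. The promoter mean of TET iTKO cells was 55.7% ± 2.505 and 64.9% ± 4.997 (SD, n = 2), beside 25.8% ± 2.94 and 23.5% ± 1.90 in WT cells. Changes between cycles within a genotype were not tested here.

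Whether the genotype difference was unequal between the cycles was tested on the odds of C against T reads, not on points. The quasi-binomial test called 0 of 60 CpGs (0%), with a smallest adjusted p of 0.151. At an unadjusted p under 0.05 there were 16, and limma called 0. The change of the signed difference (TET iTKO minus WT) from the first to the second cycle was positive at 51 of 60 CpGs. It was so at all 17 of CNS1, by 16.4 to 27.9 points, 12 of them at an unadjusted p under 0.05. At CpG42 of HSII the change was −15.2 points (unadjusted p = 0.0370). Without TET iTKO replicate 2 of the first cycle 1 CpG was called, CpG28 (adjusted p = 0.0270). A change of the genotype difference in odds between cycles thus did not pass the adjustment when all libraries were used. The changes in points were not themselves tested.

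Second-cycle WT cells of the TDG line, the controls for cells with floxed Tdg alleles, showed how far WT pairs lay apart. The quasi-binomial test of TET WT against TDG WT cells called 0 of 63 CpGs (0%), with a smallest adjusted p of 0.749. At an unadjusted p under 0.05 there were 4 (CpGs 17, 37, 41 and 42), and limma called 0. The difference of the WT pairs had a median of 1.68 points and ran from −4.16 to 13.6 points. TET WT cells were the higher pair at 48 of 63 CpGs, including all 17 of CNS1 and all 5 of HSII. In CNS1 the TDG WT mean was 25.1% ± 5.35 (SD, n = 2), 5.64 points below TET WT cells, small beside the 58.04 points between TET iTKO and WT cells. In the 3′ region of HSII it was 26.2% ± 2.76 (SD, n = 2), 7.85 points below TET WT cells, which is more than the 6.41 points between TET iTKO and WT cells there. Both differences use the TET WT libraries, with opposite signs, so a high TET WT pair narrows the genotype difference and widens that between WT pairs. The HSII mean was 40.5% in TET iTKO, 34.1% in TET WT and 26.2% in TDG WT cells. Comparing the 2 differences thus cannot decide whether the genotype difference was wider than that between WT pairs. The same limit holds for single CpGs. The genotype and WT-pair differences were 12.1 and 5.30 points at CpG38 and 8.48 and 3.12 at CpG40. They were 4.65 and 11.6 at CpG41 and 2.71 and 13.64 at CpG42. At each of these CpGs the TET iTKO mean lay above the TDG WT mean, with 33.6% and 17.3% at CpG41 and 40.3% and 23.9% at CpG42.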

How the data were processed

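The authors mapped paired-end bisulfite amplicon reads to mm9 with BSMAP (settings -v 5, -q 30, -w 2 and -p 4, its version not given in the sources used here). They deposited unnormalized counts, at each cytosine the reads showing C and the total showing either base, with an upper limit on the count. Groups were taken from the sample titles. Amplicons were placed by matching their primers to the converted genome, and exons follow the mm9 annotation. The quasi-binomial regression was fitted jointly to the naïve and Th2 groups (10 groups, 22 libraries), with samples that were runs of 1 library summed. Williams weights allowed for 1 common between-library variance. The dispersion of a CpG was moderated by squeezeVar (limma 3.58.1) with a minimum of 1, and contrasts had two-sided F-tests. It was tested on simulated data. Region means are unweighted over CpGs with at least 100 reads in all 4 libraries. They were compared by exact permutation tests over libraries. A count of 0 was taken to allow 3 reads.

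The CpGs named are those with the widest and the narrowest difference among the tested CpGs of each region, every CpG of the promoter and of HSII, CpGs 27 to 29, 48 to 51, 58 and 63, and those under 100 reads. Members and lists were chosen with earlier results of these data known. CpGs named singly against naïve cells or in the tests between cycles and between WT pairs were chosen after their values were seen. Alternatives were a minimum of 20 or 500 reads, read-weighted means, a fit of the compared groups alone, limma on log2((C + 1)/(T + 1)), a replicate block, calls of at least 10 points, a correction for unconverted cytosines, 4 WT libraries as controls, and each library left out in turn. A block that joins WT and TET iTKO libraries of unlike replicate numbers was chosen after seeing the data. Other samples of the series were not used beyond the shared fit. Software was R 4.3.3 and Python 3.11.15 (pandas 2.3.3, numpy 2.4.6, matplotlib 3.10.9, scipy 1.17.1).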

Additional observations from a re-analysis of the deposited data

Results flagged for a closer look

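CpG63, near the 3′ end of CNS2, lay outside the tests because 1 library had under 100 reads there, yet its levels were far apart between genotypes. It had 1 C read of 141 and 2 of 911 in WT replicates 1 and 2, and 14 of 69 and 93 of 454 in TET iTKO replicates 1 and 2. The difference was 19.9 ± 0.373 points (SDs of n = 2 libraries each). In naïve cells its level was 32.8% ± 0.247 (SD, n = 3). After the first cycle it was 3.60% ± 2.86 in WT and 18.2% ± 11.3 in TET iTKO cells (SD, n = 2 each). First-cycle TET iTKO replicate 1 also had under 100 reads at CpG63. At a minimum of 20 reads it was called (adjusted p = 3.01e-05), and it was also called without TET iTKO replicate 1 (adjusted p = 0.000117), the library with few reads.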

How the results depend on the processing

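With 2 libraries a group, exact permutation tests of region means cannot reach 0.05, so the sign and size of those means are given without a call. Of 80 alternatives over 9 results on region means, 78 kept the direction, and the exon 3 difference turned in 2, with −0.488 to 0.360 points when libraries were left out in turn. The 42 calls between TET iTKO and WT cells became 28 of the 41 CpGs left at a minimum of 500 reads and 39 to 46 under the other alternatives (39 to 44 with a library left out), and all of these alternatives called 0 lower, limma included. Fits of the compared groups alone called 40, 39 with a replicate block (all among the 42), and 46 with a block joining libraries of unlike replicate numbers, chosen after seeing the data. A library alone in its group was assumed to vary like the others.

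The 13 calls against naïve cells became 3 of 18 at 500 reads, fewer because fewer CpGs were tested, 28 with only the compared groups in the fit and 0 with a replicate block added to that fit. The cause of these last changes was not tested. With a library left out there were 10 to 14. The genotype by cycle test called 0 to 1. The test between WT pairs called 0 by the quasi-binomial test under all 10 of its alternatives, limma included.

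For 29 named CpGs, 274 of 300 alternatives kept the direction and the side of the threshold, 12 ended a call, 11 made one and 3 turned the direction. With libraries left out in turn, differences ran from −0.0413 to 9.34 points at CpG41, −0.792 to 6.21 at CpG42 and −0.175 to 1.92 at CpG46. CpG38 was also not called with only the compared groups in the fit (adjusted p = 0.0702) or with the block (0.133), and CpG58 likewise (0.0698 and 0.118). At 20 reads CpGs 23, 62 and 64 were called (adjusted p = 0.00213, 0.0133 and 0.0359), but CpG64 was not called without TET iTKO replicate 1 (0.0611). The 3′ edge of CNS2 had no mean at 100 reads, so its other alternatives were not run. It differed by 11.6 points at 20 reads and by 11.5 points without TET iTKO replicate 1. Exon 1 had no CpG left at 500 reads. Reads of TET iTKO replicate 1 were under that number at all CpGs of exon 1 and at CpGs 1, 2, 52 to 56, 58 and 62 to 64.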
